A study of Homo sapiens and synthetic construct with 52 samples.

Results

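Guides against RNA polymerase II (Pol II), TFIID and the initiation factors TFIIA, TFIIB, TFIIE and TFIIF were followed through the CRISPRi survival and dasatinib screens. Members were the guides whose gene name was 1 of 33 listed symbols. Guides were found for 32 of the 33 genes, 170 guides in all, in a library of 103074 guides that covered 18788 genes and included 1895 non-targeting guides. POLR2J had no guide under that symbol. POLR2D and POLR2E had 10 guides each, 5 to each of 2 annotated promoters, and every other member had 5. By complex, the 32 genes were 6 subunits found only in Pol II, 5 subunits that Pol II shares with Pol I and Pol III, 7 initiation factor genes, 11 TFIID genes and 3 TFIID genes whose products also sit in the SAGA coactivator (TAF9, TAF10 and TAF12).

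Pol II makes messenger RNA. TFIID, built from the TATA-binding protein TBP and its associated factors (TAFs), recognises the core promoter, TFIIA steadies it there, TFIIB bridges promoter and polymerase, TFIIF arrives with the polymerase, and TFIIE brings in the helicase factor TFIIH. In CRISPRi, dCas9 fused to the KRAB repressor is guided to a promoter and lowers transcription of the gene, so a guide that slows proliferation becomes rarer in a growing population.

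All screens used K562, a chronic myeloid leukemia line, as a pooled dCas9-KRAB line sorted on BFP. In the survival screens the LGR library, a recloned and less skewed version of CRISPRi V2, was grown for 7 days after puromycin selection at 1000-fold cell coverage (3 Tf samples and 1 T0 sample) or 100-fold coverage (4 Tf samples and 2 T0 samples). In the dasatinib screens the LGR library and the legacy library were each sampled at 100-fold coverage as 2 dasatinib samples (0.75 nM of this tyrosine kinase inhibitor for 72 h, then 6 days without drug), 2 DMSO samples (0.01% vehicle) and 2 T0 samples taken 7 days after infection. Each dasatinib-screen library was transduced once and then split, and separate transductions are not described for the survival samples, so p-values here measure only the spread between these samples.

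Total counts ran from 105684438 to 111002750 per sample in the 1000-fold screen and from 47678549 to 54678272 in the 100-fold screen. In the dasatinib screens they ran from 15739255 to 19844033. The 1000-fold screen had the most counts per sample and also the highest cell coverage. The pair of LGR dasatinib samples stood apart, with a correlation of 0.656 between them on the log2 scale, against 0.82 to 0.977 for every other pair of replicates. Member guides took 0.0824%, 0.083% and 0.0836% of the counts in the 1000-fold Tf samples and 0.138% at T0. In the LGR dasatinib screen they took 0.0803% and 0.0833% in dasatinib, 0.0708% and 0.0689% in DMSO, and 0.108% and 0.11% at T0.

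Because the guides act at promoters, the promoters of the largest Pol II subunits and of 2 TFIID genes that recur in the results are shown, as the 150 bases before the RefSeq start in GRCh38.p14, on the gene's strand. Capitals mark the GC box (GGGCGG) and the CCAAT box (CCAAT), read on both strands.
POLR2A, chr17:7484216-7484365, plus strand: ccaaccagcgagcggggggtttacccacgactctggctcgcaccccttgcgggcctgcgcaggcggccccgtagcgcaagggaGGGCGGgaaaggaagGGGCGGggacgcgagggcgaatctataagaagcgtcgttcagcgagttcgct
POLR2B, chr4:56978746-56978895, plus strand: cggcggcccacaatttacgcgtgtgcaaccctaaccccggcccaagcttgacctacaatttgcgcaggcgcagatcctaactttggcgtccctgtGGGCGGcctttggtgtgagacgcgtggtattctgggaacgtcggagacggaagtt
TAF4, chr20:62065882-62066031, minus strand: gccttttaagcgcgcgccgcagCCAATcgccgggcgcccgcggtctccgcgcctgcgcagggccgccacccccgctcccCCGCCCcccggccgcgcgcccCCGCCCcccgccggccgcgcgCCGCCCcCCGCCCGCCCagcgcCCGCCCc
TAF7, chr5:141320785-141320934, minus strand: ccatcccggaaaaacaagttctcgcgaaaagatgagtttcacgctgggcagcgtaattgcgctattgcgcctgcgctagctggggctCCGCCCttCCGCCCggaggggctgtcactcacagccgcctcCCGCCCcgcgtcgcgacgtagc

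RefSeq promoter windows were matched for 26 members, and motifs were searched in the 250 bases before the start. The GC box was in 16 of the 26, against 46.2% of 27305 genes, and the CCAAT box in 6, against 37%. The ETS core (CCGGAAG) was in 10 of the 26, against 10.2% of genes, and the TATA box (TATAAA) in 1, against 13%. These are matches of letters and not bound sites.

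In the 1000-fold survival screen, nearly every member was depleted. The phenotype score of a gene is the mean log2 enrichment, Tf over T0, of its 3 strongest guides, relative to the non-targeting median. The gene score multiplies this phenotype, in SDs of pseudo-genes of non-targeting guides, by -log10 of the exact Mann-Whitney p of all guides of the promoter against the non-targeting set, and a hit is a gene whose score passed a false discovery rate of 0.05 set by those pseudo-genes. By this rule 29 of the 32 members were hits, all of them lower in Tf, while 11.1% of all genes scored were lower. The median phenotype was -1.9 for the members and -0.0521 for all genes scored. Taking the strongest guides enlarges every phenotype, and the score treats guides and not samples as its units. The other 2 tests do not pick guides by strength. On counts summed over all guides of a gene, edgeR's quasi-likelihood test called 30 of 32 members lower (16.4% of all genes), and on single guides it called 100 of 170 lower (9.07% of all guides).

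**Figure D1:**
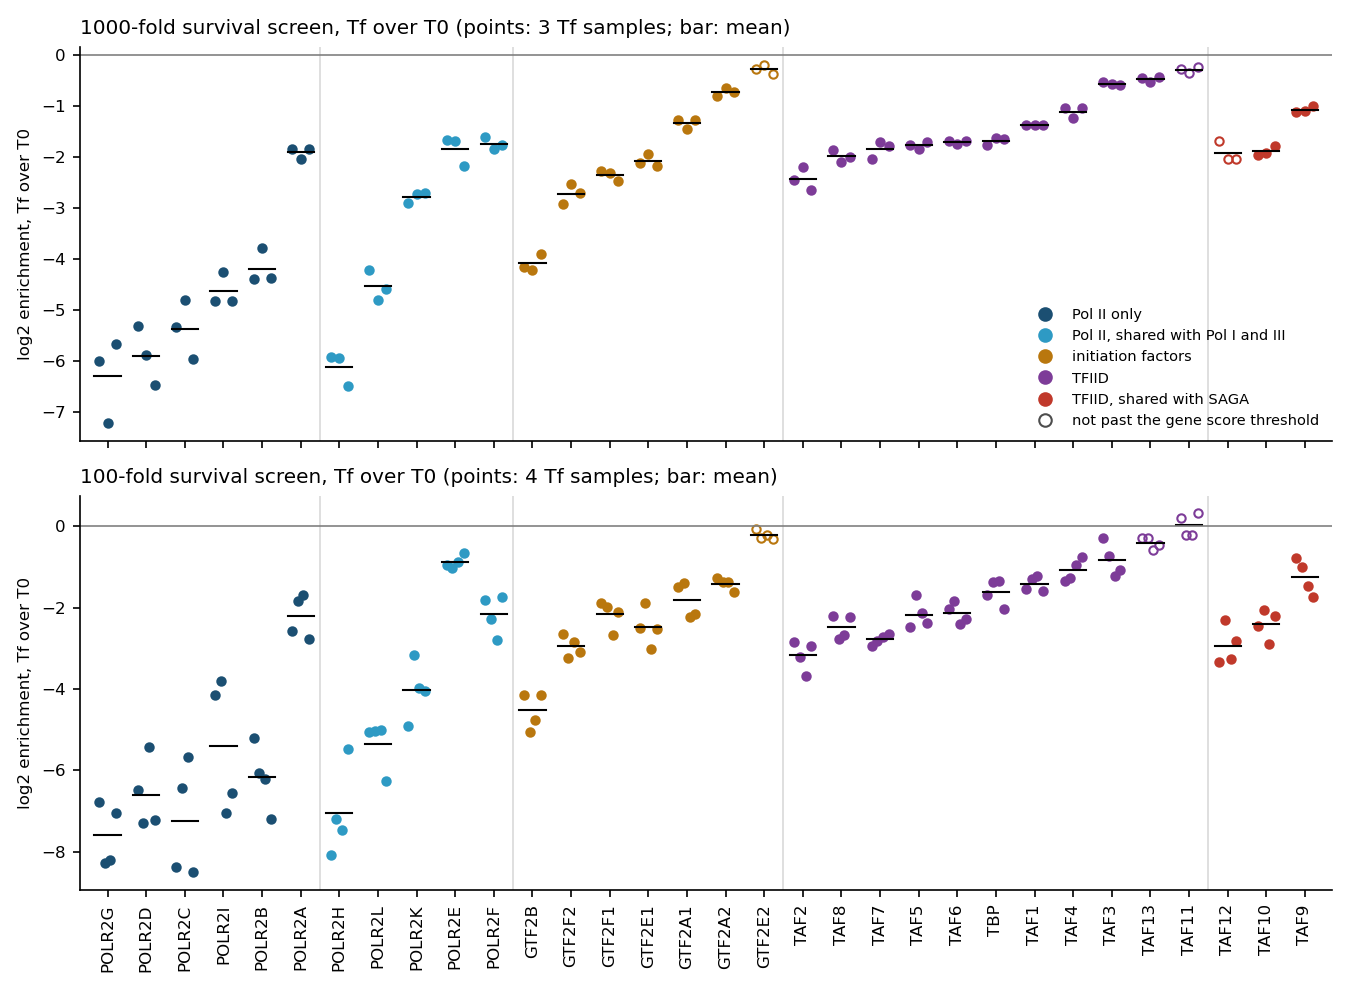
Phenotype score (log2 enrichment, Tf over T0; vertical axis) of the 32 members in the 1000-fold screen (top, 3 Tf samples) and the 100-fold screen (bottom, 4 Tf samples), by complex, with points for samples, bars for means and open points for genes that were not hits. POLR2G, POLR2H and POLR2D lie lowest in the 1000-fold screen, near -6, while GTF2E2 and TAF11 lie close to 0 in both.

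The subunits found only in Pol II had the lowest phenotypes, with a median of -5.0, and 6 of 6 were hits. POLR2G, the subunit RPB7 of the stalk, was at -6.0, -7.22 and -5.66 in the 3 Tf samples, a mean of -6.29 ± 0.82 (SD, n = 3). Its partner in the stalk, POLR2D (RPB4), was at -5.32, -5.89 and -6.47 (-5.89 ± 0.57). The second-largest subunit, POLR2B, was at -4.19 ± 0.34, and POLR2C and POLR2I were at -5.37 ± 0.58 and -4.63 ± 0.33. All samples of these genes lay far below 0. POLR2A, the largest subunit, which carries the catalytic center with POLR2B and the C-terminal repeat domain, was the least depleted of the 6, at -1.85, -2.04 and -1.85 (-1.91 ± 0.11). These SDs cover the Tf samples only, since there was 1 T0 sample.

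All 5 subunits shared with Pol I and Pol III were also hits, with a median of -2.78. POLR2H was at -5.92, -5.93 and -6.49 (-6.12 ± 0.33), overlapping with the stalk subunits, and POLR2L followed at -4.54 ± 0.3. POLR2K was at -2.78 ± 0.11, POLR2E at -1.85 ± 0.29 and POLR2F at -1.74 ± 0.12. The samples of POLR2E and POLR2F overlapped with those of POLR2A.

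Among the initiation factors 6 of 7 were hits, and TFIIB stood lowest. GTF2B, its only subunit, was at -4.15, -4.21 and -3.9 (-4.08 ± 0.17). The TFIIF subunits GTF2F2 and GTF2F1 were at -2.72 ± 0.20 and -2.36 ± 0.10, and the TFIIA subunits GTF2A1 and GTF2A2 at -1.34 ± 0.10 and -0.73 ± 0.08. The TFIIE subunits differed most from each other. GTF2E1 was at -2.08 ± 0.12, while GTF2E2, at -0.27, -0.2 and -0.37, was not a hit.

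TFIID genes lay nearer to 0. Of the 11 genes not shared with SAGA, 10 were hits, and their median was -1.68. TAF2, a promoter-binding TAF, was the lowest at -2.43 ± 0.22. TBP was at -1.76, -1.63 and -1.65 (-1.68 ± 0.07), and TAF1, the largest subunit, at -1.38, -1.38 and -1.37. TAF3 and TAF13 were hits at -0.57 ± 0.03 and -0.47 ± 0.05, and TAF11, at -0.28, -0.35 and -0.24, was not. TAF11 and TAF13 pair with each other within TFIID through histone folds. Of the 3 genes shared with SAGA, TAF10 was a hit at -1.97, -1.92 and -1.79 (-1.89 ± 0.09) and TAF9 at -1.08 ± 0.07. TAF12 had a phenotype of -1.92 ± 0.21 and was not a hit, with a gene score of 4.77 (exact Mann-Whitney p = 0.372 over its 5 guides), whereas POLR2E passed with 5.52 (exact Mann-Whitney p = 0.304), so the 2 lie on either side of the threshold.

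Guides of the same gene often differed in depletion. In the 1000-fold screen 6 members had 5 guides called lower, 5 had 4, 13 had 3, 4 had 2, 3 had 1 and 1 had none. POLR2D and POLR2E enter these counts with 5 and 3 of their 10 guides. For TAF12, guides with the protospacer-adjacent motif (PAM) at 28969542 and 28969568 on chromosome 1 (hg19) had log2 fold changes of -3.36 ± 0.33 and -2.6 ± 0.28 (SE), and the other guides, at 28969156, 28969170 and 28969176, were at -0.20, 0.20 and 0.34 and were not called. The POLR2L guides at 842509, 842512 and 842515 on chromosome 11 were at -3.86, -6.60 and -2.95, all called, against 0.18 and 0.06 for those at 842464 and 842118. The 5 guides to the POLR2D promoter labelled P1 ran from -6.41 to -1.47, all called lower, whereas the 5 at P2 ran from -0.10 to 0.32 with none called, and the phenotype of P2 was 0.0077. For TAF10, guides at 6633406 and 6633436 on chromosome 11 were at -3.51 and -2.27, and the guide at 6633423, between those positions, was at 0.23. A phenotype near 0 here therefore describes the guides, since the knockdown of each gene was not measured.

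**Figure D2:**
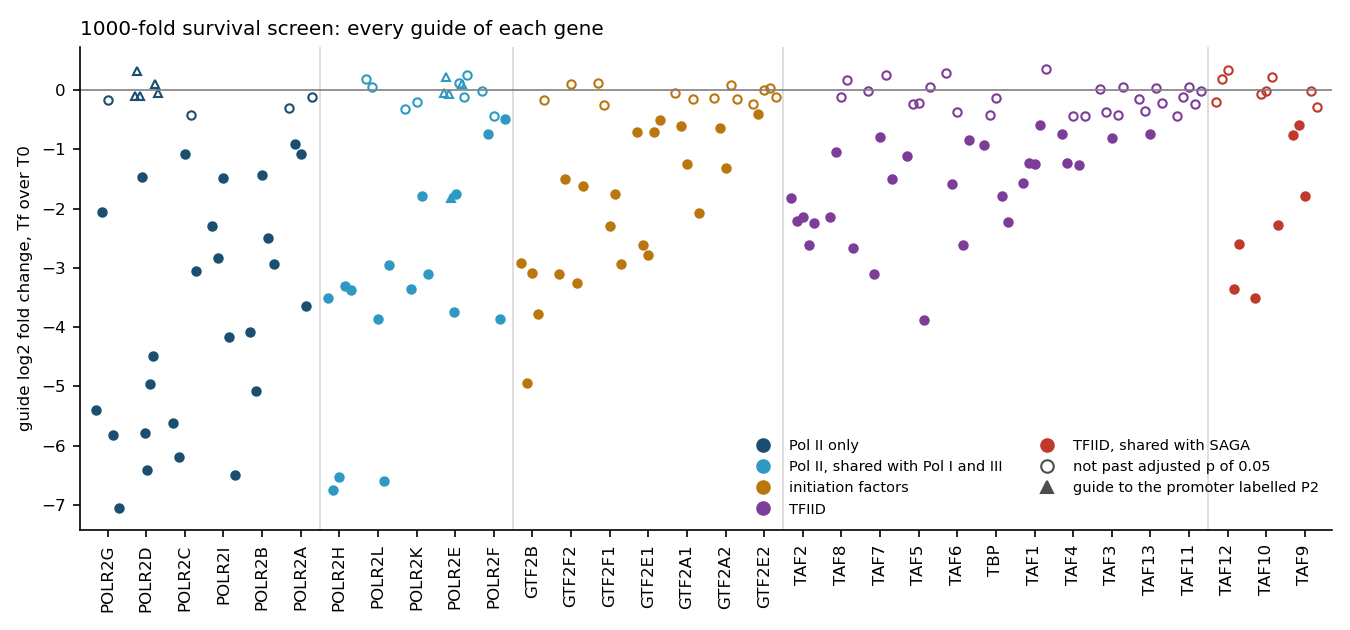
Log2 fold change of each of the 170 member guides, Tf over T0, in the 1000-fold survival screen (vertical axis), grouped by gene and complex, with filled symbols for adjusted p under 0.05 in edgeR and triangles for guides to a promoter labelled P2. Filled points reach -7.05 for POLR2G, and 6 of the genes have 5 filled points, among them POLR2D, which has 10 guides.

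POLR2E also has 2 annotated promoters. At P1 the guides at 1095287 and 1095301 on chromosome 19 were at -3.74 and -1.75 and the other 3 were between -0.12 and 0.26. At P2 the guide at 1089911 alone was called, at -1.82. The score took P1 in the 1000-fold screen and P2 in the 100-fold screen, where P1 was at -3.24 and P2 at -0.88, so its phenotypes in the 2 screens belong to different promoters.

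At 100-fold coverage most members were again depleted. Hits numbered 29 of 32, all lower (10.2% of all genes), with 28 of 32 lower on summed counts (8.95%) and 81 of 170 guides lower (5.68%). Fewer guides were called lower without T0 sample 1 or 2, which shows dependence on single samples and is not a result about the members. POLR2G was again lowest, at -6.77, -8.27, -8.21 and -7.05 in the 4 Tf samples (-7.58 ± 0.78, SD, n = 4). POLR2C was at -8.37, -6.42, -5.66 and -8.49 (-7.24 ± 1.42), and POLR2H at -8.09, -7.2, -7.47 and -5.47 (-7.06 ± 1.12). The samples of these genes overlapped, and those of POLR2I spread most of all the members (-5.39 ± 1.65). The catalytic subunit POLR2A was at -2.57, -1.85, -1.69 and -2.77, and GTF2B at -4.15, -5.06, -4.75 and -4.14, so the 2 did not overlap. TBP was at -1.69, -1.36, -1.34 and -2.04. TAF1 was at -1.54, -1.3, -1.23 and -1.6, within the range of TBP or close above it. TAF10 was at -2.46, -2.06, -2.89 and -2.21, below every TBP and TAF1 sample. TAF12 was a hit here, at -2.93 ± 0.48, and TAF13 was not, at -0.41 ± 0.15. GTF2E2, between -0.32 and -0.07, and TAF11, between -0.22 and 0.31, were again not hits.

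The difference between the coverages, 100-fold minus 1000-fold, was tested as an interaction in edgeR on summed counts. It was called for 0 of 32 members (0% of all genes called), with 0 members at an unadjusted p under 0.05 (1.21% of all genes). Among guides it was called for 0 of 170, with 5 at an unadjusted p under 0.05 (1.29% of all guides). At 100-fold coverage between 10% and 12.4% of member guides had under 10 counts in a Tf sample, against 0.958% to 1.08% of all targeting guides, so the lowest phenotypes rest on few reads. At 1000-fold coverage the share was 4.12% to 5.29%.

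**Figure D3:**
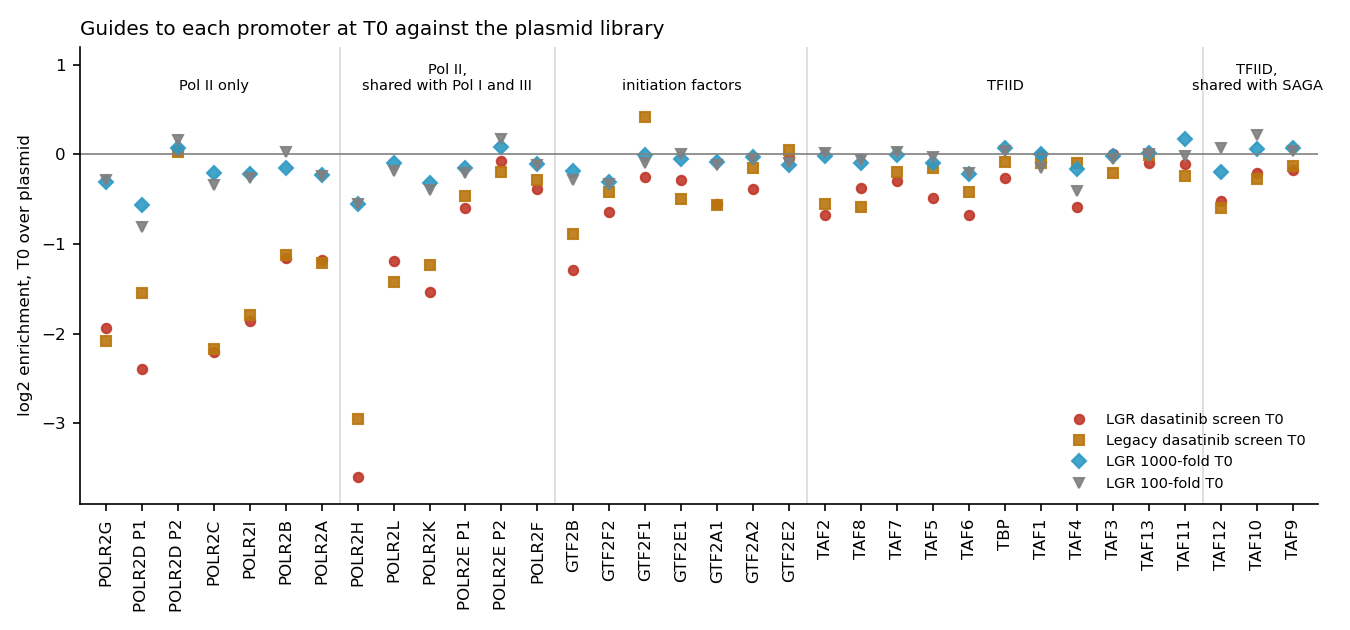
Log2 enrichment of the guides to each member promoter, T0 over the plasmid library, for the LGR and legacy dasatinib screens and for the LGR survival screens at 1000-fold and 100-fold coverage (vertical axis), by complex. The dasatinib-screen T0 samples fall to -3.6 for POLR2H, and the survival T0 samples stay within 1 of 0 for every promoter.

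The T0 samples of the dasatinib screens had already lost many of these guides. Relative to the plasmid library, the median over the 34 member promoters was -0.505 in the LGR dasatinib-screen T0 and -0.418 in the legacy T0, against -0.0958 and -0.0941 in the 1000-fold and 100-fold survival T0. Promoters below -1 numbered 10 of 34 in LGR (2.58% of all promoters) and 9 of 34 in legacy (2.14%), and 0 of 34 in either survival T0. Subunits found only in Pol II had the lowest medians, -1.86 in LGR and -1.55 in legacy, shared subunits were at -0.894 and -0.847, initiation factors at -0.39 and -0.416, and TFIID genes at -0.299 and -0.194. POLR2H was the lowest promoter, at -3.6 in LGR and -2.95 in legacy, and POLR2C (-2.2 and -2.17) and POLR2G (-1.94 and -2.08) were also low in both. These are ratios without a test. The LGR plasmid library was read on a HiSeq and the legacy one on a NextSeq. The survival and dasatinib T0 samples came from separate transductions. Puromycin lasted 3 days in the survival screens and 5 days in the dasatinib screens, and depth differed too. The day, the transduction, the selection and the depth cannot be told apart.

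Growth in the dasatinib screens, DMSO over T0, thus started from a T0 in which Pol II guides were already scarce. In the LGR library 142 of the 170 member guides reached 50 counts in either group (83.5%, against 98.6% of all targeting guides), and 29 members could be scored, without POLR2C, POLR2G and POLR2H. In the legacy library 145 reached it and 31 members were scored, without POLR2H. The POLR2D value in both came from P2 alone, at 0.07 ± 0.39 in LGR and -0.16 ± 0.46 in legacy. Of those scored, 20 of 29 were hits in LGR (9.01% of all genes) and 22 of 31 in legacy (8.52%), all lower. On summed counts 22 of 32 were lower in LGR (10.2%) and 22 of 32 in legacy (10.1%), and 77 of 169 guides (7.42%) and 77 of 170 guides (6.88%) were lower. In both libraries fewer guides were called lower without T0 A or T0 B, which again shows only dependence on single samples. By summed counts 20 of 32 members were lower in all 4 proliferation comparisons (6.68% of all genes tested in all 4), by the gene score 17 of 29 were (5.78%), and GTF2E2 and TAF11 were hits in none.

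The stalk subunit POLR2G, lowest in the survival screens, could not be scored in LGR and was at -1.99 ± 0.41 in legacy. In LGR the lowest hits were GTF2E1, at -5.02 and -5.17 in the 2 DMSO samples (-5.1 ± 0.11, SD, n = 2), GTF2F2, at -4.12 and -4.63 (-4.38 ± 0.36), and TAF2, at -3.52 and -3.63 (-3.58 ± 0.08). In legacy they were TAF2, at -4.37 and -4.59 (-4.48 ± 0.16), POLR2B, at -3.69 and -4.36 (-4.02 ± 0.47), and GTF2E1, at -3.3 and -4.36 (-3.83 ± 0.75). The samples of POLR2B and GTF2E1 overlapped in legacy. POLR2A was at -1.83 and -1.29 in LGR and -1.33 and -1.26 in legacy. GTF2B was at -1.57 and -3.17 in LGR, a wide spread, and -3.34 and -3.43 in legacy. TAF1 was at -1.97 and -1.78 in LGR and -3.36 and -2.4 in legacy. GTF2E2 was at -0.17 and -0.64 in LGR and -0.24 and -0.21 in legacy, and TAF11 at -0.26 and -0.38 in LGR and -0.02 and -0.1 in legacy. TAF10 was a hit in legacy (-3.61 and -2.96) but had 4 guides scored and a phenotype of -1.01 and -0.68 in LGR, where it was not. Whether the depletion of TAF10 differed was tested on summed counts and did not pass, at -0.1 ± 0.16 for LGR minus legacy (adjusted p = 0.885, edgeR). That sum includes guides near 0 in both libraries, so it could miss a difference in the depleted guides. The guide at 6633436 was at -2.19 in LGR and -8.74 in legacy, a difference of 6.55 ± 1.65 that did not pass (adjusted p = 0.118, edgeR). For the other depleted guide, at 6633406, the difference was -0.90 ± 1.17 and did not pass.

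Between libraries, growth differed for TBP alone among the members, as 1 of 32 on summed counts (0.729% of all genes differed). By the gene score TBP was a hit in LGR, at -2.64 and -2.26, and was not in legacy, at -1.51 and -1.62. Summed TBP guides had 13.6 and 16.6 CPM (counts scaled to a common library size) in DMSO and 34.6 and 38.1 CPM at T0 in LGR, and 39.8 and 40 CPM in DMSO and 58.2 and 54.8 CPM at T0 in legacy. DMSO lay below T0 in both libraries without overlap. Fitted for each library alone, the log2 fold change was -1.29 in LGR and -0.52 in legacy, and the joint fit of both libraries gave a difference of -0.73 ± 0.19 (SE; adjusted p = 0.047, edgeR). Of 170 member guides, 1 differed in growth between libraries, the TBP guide at 170863481 on chromosome 6. In the same test 2 of 1890 non-targeting guides were called. The TBP guide had 0.181 and 0.405 CPM in DMSO and 4.43 and 4.62 CPM at T0 in LGR. In legacy it had 5.73 and 4.53 CPM in DMSO and 9.23 and 8.74 CPM at T0 (difference -3.14 ± 0.62, adjusted p = 0.038, edgeR). Leaving out single samples ended the call on summed counts in 7 of 8 cases and that on the guide in 6 of 8.

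After dasatinib, few of these genes changed against DMSO, and those that did were mostly higher. Guides that confer resistance become more frequent in dasatinib than in DMSO. Many member guides had fallen in DMSO against T0, and whether a higher ratio here is resistance was not tested. Dasatinib over DMSO shares its DMSO samples with DMSO over T0, so the 2 comparisons are not independent. On summed counts 2 of 31 members were higher in LGR (0.807% of all genes), GTF2E1 and TAF4, and none was lower. In legacy 2 of 32 were higher (1.61%), again GTF2E1 and TAF4, and 1, TAF11, was lower (0.39%).

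The gene score takes guides with 50 counts on average in either dasatinib or DMSO, so a guide can enter through high dasatinib counts alone. By this filter 21 members were scored in LGR and 3 were hits, TAF4, GTF2E1 and TAF7, all higher (1.01% of all genes), and 20 were scored in legacy with 1 hit, TAF1, also higher (0.999%). Of the guides behind these hits, 4 of 5 for TAF4, 1 of 3 for GTF2E1, 2 of 4 for TAF7 and 2 of 4 for TAF1 entered only through dasatinib, and without them each gene would have had under 3 guides and no score. These hits are therefore given as a description. With guides chosen instead by 50 counts at T0, which the comparison does not use, 7 of 29 members were hits in LGR (1.98% of all genes) and 7 of 31 in legacy (1.84%), all higher. This filter was added after the data were seen, and the guides it adds had under 50 counts on average in both dasatinib and DMSO. TAF4, GTF2E1 and TAF7 were among the 7 in LGR, at 2.54, 4.05 and 2.4, with TAF2, TAF8, TAF9 and GTF2F2. In legacy the 7 were GTF2E1 (3.12), TAF7 (2.63), TAF1 (2.21), TAF2, TAF10, GTF2F2 and POLR2G.

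**Figure D4:**
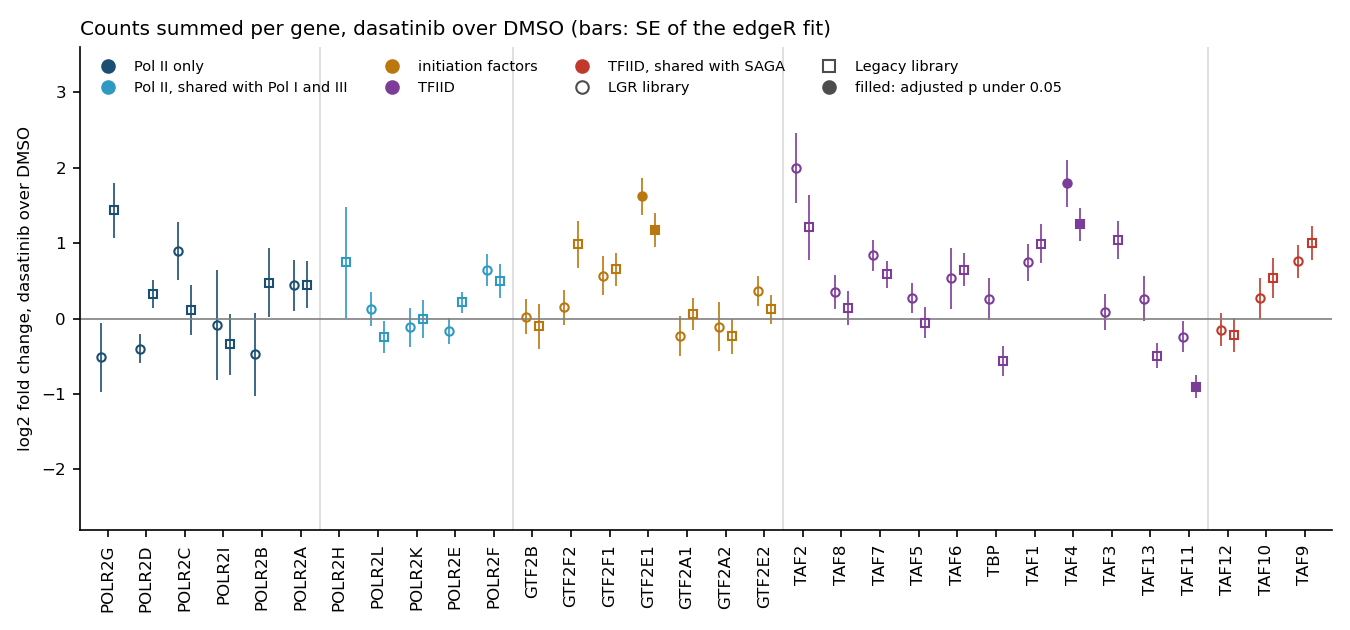
Log2 fold change of counts summed per gene, dasatinib over DMSO, in the LGR (circles) and legacy (squares) libraries (vertical axis), with the SE of the edgeR fit and filled symbols for adjusted p under 0.05. GTF2E1 and TAF4 are filled in both libraries and TAF11 in legacy, and POLR2H has no LGR value because its summed counts were under the minimum.

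TAF4 encodes a scaffold of TFIID. Its summed guides were at 50.7 and 29.4 CPM in dasatinib and 13.4 and 10.6 CPM in DMSO, with 24.2 and 28.7 CPM at T0. In legacy they were at 45.1 and 61.4 CPM in dasatinib and 20.6 and 25.7 CPM in DMSO, with 48.8 and 44.8 CPM at T0. Dasatinib lay above DMSO without overlap in both libraries. The log2 fold changes of the sums were 1.79 ± 0.31 in LGR (adjusted p = 0.047) and 1.25 ± 0.22 in legacy (adjusted p = 0.020, edgeR). The guide at 60640894 on chromosome 20 had 13 and 5.48 CPM in dasatinib and 1.14 and 0.868 CPM in DMSO in LGR, and 23.9 and 25.8 CPM in dasatinib and 3.78 and 3.49 CPM in DMSO in legacy. By the gene score TAF4 was not a hit in legacy, at 1.59 ± 0.09 with either choice of guides.

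GTF2E1, the large subunit of TFIIE, had 27 and 31.8 CPM in dasatinib and 9.15 and 10.7 CPM in DMSO in LGR, and 34.3 and 33.4 CPM in dasatinib and 17.2 and 13.9 CPM in DMSO in legacy. Its T0 samples were higher than both, at 46.5 and 44 CPM in LGR and 40.8 and 46.5 CPM in legacy. The log2 fold changes were 1.62 ± 0.25 in LGR (adjusted p = 0.030) and 1.17 ± 0.23 in legacy (adjusted p = 0.031, edgeR). Among the members scored, GTF2E1 had fallen most in LGR DMSO, and in LGR and legacy its dasatinib samples lay between DMSO and T0. In legacy 2 of its guides reached 50 counts in dasatinib or DMSO, so that filter gave no score there.

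The calls on summed counts depended on single samples. In LGR, leaving out DMSO 1 or DMSO 2 ended edgeR's call for GTF2E1 (adjusted p = 0.267 and 0.145) and for TAF4 (0.0683 and 0.19). In legacy the same held for GTF2E1 (0.129 and 0.441) and for TAF11 (0.271 and 0.162), and for TAF4 without DMSO 1 (0.144). The fold changes themselves stayed between 1.51 and 1.97 in LGR and between 1.03 and 1.33 in legacy for GTF2E1 and TAF4. Leaving out a dasatinib sample gave more calls over all genes too. In LGR 12 or 10 of 31 members were called (30.4% or 29.7% of all genes), and in legacy 14 of 31 or 14 of 32 (24.7% or 24%), with the remaining dasatinib sample assumed to vary like the DMSO samples.

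**Figure D5:**
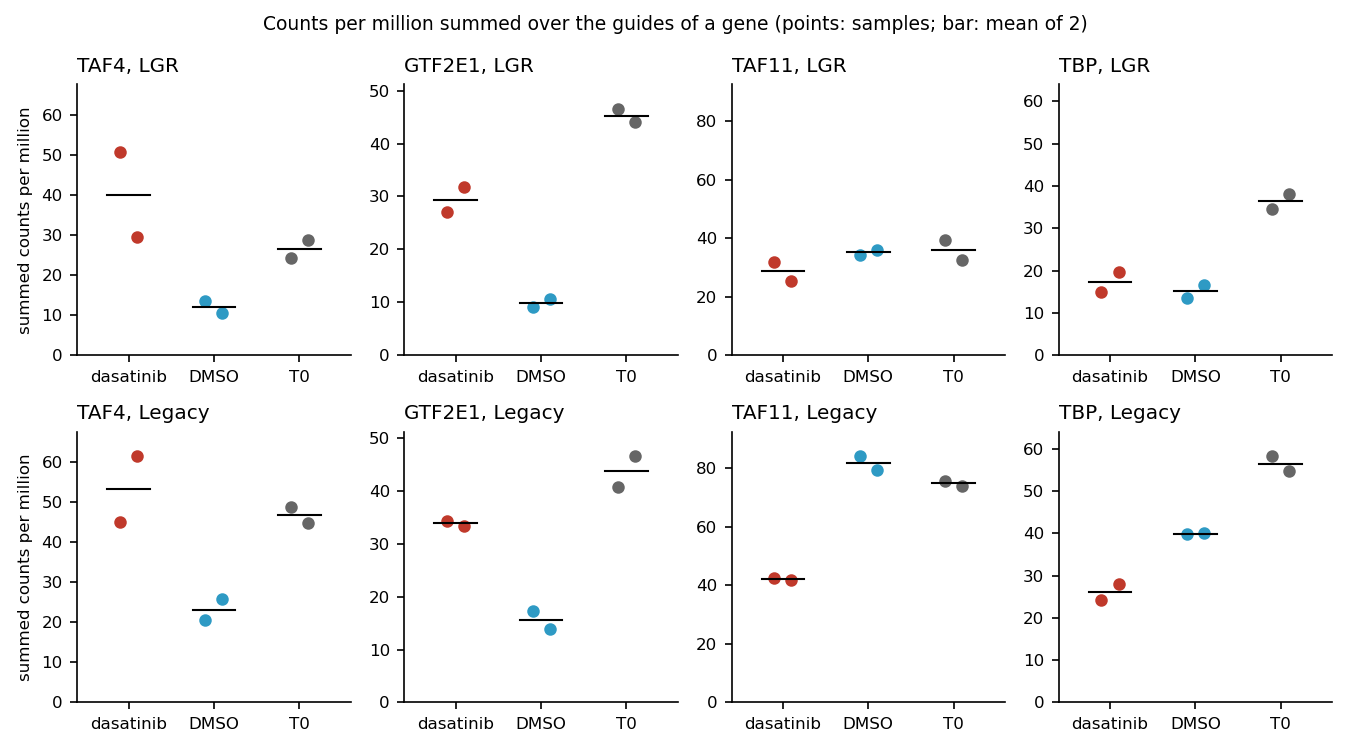
CPM summed over the guides of TAF4, GTF2E1, TAF11 and TBP in the dasatinib, DMSO and T0 samples (horizontal axis) of the LGR (top) and legacy (bottom) dasatinib screens, with points for samples and bars for means of 2. TAF4 and GTF2E1 are higher in dasatinib than in DMSO in both libraries, and TAF11 is lower in dasatinib in legacy, at 42.5 and 42.0 CPM in dasatinib against 84.1 and 79.4 CPM in DMSO.

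The guides of TAF7, a TFIID subunit that binds TAF1, summed to 40.1 and 35.1 CPM in dasatinib and 20.2 and 23.5 CPM in DMSO in LGR, and to 48 and 45.8 CPM in dasatinib and 30.2 and 34.5 CPM in DMSO in legacy. TAF1 guides summed to 39.8 and 27.8 CPM in dasatinib and 22.6 and 19.2 CPM in DMSO in LGR, and to 49.7 and 31.7 CPM in dasatinib and 18.5 and 23.8 CPM in DMSO in legacy. Dasatinib lay above DMSO without overlap for both genes, but neither was called on summed counts in either library, at 0.84 ± 0.21 in LGR and 0.59 ± 0.18 in legacy for TAF7 and at 0.75 ± 0.25 in LGR and 0.99 ± 0.26 in legacy for TAF1. With guides chosen by their T0 counts, TAF1 was not a hit in LGR, at 1.59. With guides chosen by dasatinib or DMSO counts, the TAF7 call was lost without DMSO 1, dasatinib 1 or dasatinib 2, the TAF1 call without legacy DMSO 1 or dasatinib 1, and the GTF2E1 score in LGR without DMSO 1 or dasatinib 2. On summed counts the difference between libraries was 0.27 ± 0.28 for TAF7 and -0.23 ± 0.38 for TAF1, and neither passed. TAF2 had a high fold on few reads in LGR, with 13.1 and 7.39 CPM in dasatinib and 2.89 and 2.43 CPM in DMSO, a log2 fold change of 2.0 ± 0.46, and was not called (adjusted p = 0.118, edgeR).

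TAF11 went the other way in legacy. Its summed guides were at 42.5 and 42 CPM in dasatinib, 84.1 and 79.4 CPM in DMSO and 75.7 and 74.1 CPM at T0, a log2 fold change of -0.90 ± 0.15 (adjusted p = 0.017, edgeR). In LGR they were at 31.8 and 25.5 CPM in dasatinib, 34.3 and 35.9 CPM in DMSO and 39.3 and 32.5 CPM at T0, at -0.24 ± 0.21, which was not called. The difference between the libraries, 0.68 ± 0.26, did not pass (adjusted p = 0.368). TBP had 15 and 19.7 CPM in dasatinib and 13.6 and 16.6 CPM in DMSO in LGR, and 24.3 and 27.9 CPM in dasatinib and 39.8 and 40 CPM in DMSO in legacy, with neither called. No member passed the test of a difference between libraries in dasatinib over DMSO (0 of 32, against 0.0107% of all genes in edgeR). At an unadjusted p under 0.05 there were 5 of 32, against 11.2% of all genes.

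Single guides added little. In LGR 0 of 154 member guides were called (0.0954% of all guides were called higher), with 37 at an unadjusted p under 0.05 in edgeR (12% of all guides) and 6 called by DESeq2 (2.06%). Leaving out a LGR dasatinib sample gave 27 of 147 or 22 of 150 (21.1% or 20.2% of all guides). In legacy 3 of 159 were higher (0.572%), with 1 when either DMSO sample was left out and 33 when either dasatinib sample was (15.9% or 15.6% of all guides). The 3 were the TAF4 guide at 60640894 (2.90 ± 0.33), a TAF3 guide at 7860692 on chromosome 10 (2.31 ± 0.39), with 17 and 12.3 CPM in dasatinib and 3.32 and 3.08 CPM in DMSO, and a TAF6 guide at 99716954 on chromosome 7 (2.32 ± 0.36), with 14.5 and 17.2 CPM in dasatinib and 3.49 and 3.43 CPM in DMSO. In LGR the same guides were at 3.35, 0.58 and 0.57.

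Most Pol II subunits could not be scored for dasatinib. Only 95 member guides in LGR (55.9%, against 94.4% of all targeting guides) and 99 in legacy (58.2%, against 88%) reached 50 counts in dasatinib or DMSO, and POLR2B, POLR2H and POLR2I had none in either library. Of those that did, 19 in LGR and 13 in legacy reached it only through the dasatinib samples, so the set that passed favors higher values. On summed counts the subunits found only in Pol II ran from -0.514 to 0.896 in LGR and from -0.342 to 1.43 in legacy, with none called.

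The members' shift in dasatinib can be set beside that of all genes depleted in the 1000-fold screen, the members included. Genes that were hits with lower counts in the 1000-fold screen had a median log2 fold change of summed counts of 0.179 in LGR and 0.181 in legacy, with 3.66% and 6.31% called higher. For the members among them the medians were 0.267 and 0.475, with 2 of 28 and 2 of 29 called. Genes not lower in that screen had medians of -0.00096 and -0.0061, with 0.467% and 1.05% called higher.

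Of 11 paralogs of these genes, 1 was a hit in the 1000-fold screen, TAF5L at -0.44 ± 0.03, and their median was -0.0144. In the 100-fold screen and in both growth comparisons 1 of 11 was a hit, TAF6L, at -0.76 ± 0.32, -0.82 ± 0.17 in LGR and -1.38 ± 0.08 in legacy. In dasatinib over DMSO the paralog TAF6L was a hit in both libraries. Like TAF5L it is a SAGA subunit. Its summed guides had 76.1 and 72.4 CPM in dasatinib and 26.3 and 28.2 CPM in DMSO in LGR, and 85.8 and 99.9 CPM in dasatinib and 35.4 and 30 CPM in DMSO in legacy, log2 fold changes of 1.5 ± 0.18 and 1.56 ± 0.17 (adjusted p = 0.0097 and 0.0016, edgeR). The LGR call was lost without DMSO 1 (adjusted p = 0.12) or DMSO 2 (0.0803), and the legacy gene hit without DMSO 2. Its member counterpart TAF6 was at 0.54 and 0.65 on the same scale and was not called.

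Of 12 genes listed as Pol II assembly factors or as associated with Pol II (POLR2M), 10 were hits in the 1000-fold screen, with a median of -3.11. RPAP1 was at -6.52 ± 1.29 and RPAP2 at -6.25 ± 0.81, and PIH1D1 (-0.16 ± 0.12) and WDR92 (-0.32 ± 0.03) were not hits. Of the 3 regulators of TBP, only BTAF1, which removes TBP from DNA, was a hit, at -0.68 ± 0.10. In dasatinib over DMSO BTAF1 was a hit in both libraries, at 1.94 ± 0.14 and 1.91 ± 0.38. Its summed guides had 88.5 and 92.6 CPM in dasatinib and 28.7 and 38.8 CPM in DMSO in LGR, and 92.4 and 75.3 CPM in dasatinib and 27 and 30.7 CPM in DMSO in legacy. In LGR the call of BTAF1 on summed counts was lost without DMSO 1 (adjusted p = 0.211, edgeR). The corepressor subunit DR1, which inhibits TBP, was called on summed counts in LGR at 0.93 ± 0.15 (adjusted p = 0.042), and in legacy, at 0.61 ± 0.16, it was not (adjusted p = 0.099).

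Some guides lie near the promoter of another gene that they could also repress. Within 1000 bases, POLR2I guides came to 73 bases from guides of TBCB and TAF9 guides to 10 bases from guides of RAD17, and both neighbours were hits in the 1000-fold screen, at -1.86 and -1.93. POLR2A lay 142 bases from ZBTB4 (-0.36), GTF2E1 221 from RABL3 (-0.29), POLR2F 323 from C22orf23 (0.08), TAF6 327 from CNPY4 (-0.10) and POLR2L 340 from TSPAN4 (0.16), and none of these was a hit there. The part of a neighbour in any member's phenotype was not tested.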

How the data were processed

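Of the 52 samples, 22 screen samples and 2 plasmid libraries were used. The deposited guide counts were made by the authors with ScreenProcessing from reads demultiplexed with bcl2fastq, and hg19 is the build named in the processing notes. The counts were not normalized.

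Members and lists were chosen with earlier results of these data known. Guides with at least 10 counts in 1 sample, and counts summed per gene with at least 50 in 1 sample, were fitted over all features with edgeR 4.0.16 in R 4.3.3 (quasi-likelihood test, TMM scaling, Benjamini-Hochberg adjustment, threshold 0.05). From the study's methods the gene score takes the 3 strongest guides, the Mann-Whitney test against non-targeting guides (here exact and two-sided) and the false discovery rate. Set here were at least 50 counts in either group, at least 3 guides, 0 set to 1, the promoter of lowest p, and a threshold from pseudo-genes built of 5 non-targeting guides each. Differences between libraries and coverages were interaction terms. DESeq2 1.42.0 was an alternative and was not run for these differences. Scripts ran in Python 3.11.15 with scipy 1.17.1 and were tested on simulated data. In the simulated LGR dasatinib comparison, edgeR called 10.2% of guides and 96.9% of summed genes given a log2 change of 1.5. Those genes were drawn at random from the library, and all guides of a gene changed alike. In LGR DMSO 28.2% and 26.5% of member guides were under 10 counts, against 2.98% and 2.99% of all targeting guides. Guides of a member also differed, so the simulated rates need not hold for the members.

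Values per sample were given for the 3 hits of largest decrease in each proliferation comparison, every hit in a dasatinib comparison, members that differed between libraries, POLR2A, TBP, TAF1, TAF10, GTF2B and the members that were hits in none. Single guides were named where guides of a gene split, and genes of other lists by the size of their phenotype or call.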

Additional observations from a re-analysis of the deposited data

Results flagged for a closer look

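POLR2L stood apart in a single sample of the 100-fold survival screen. Its phenotype was -6.27 in Tf 4 and between -5.07 and -5.01 in the other Tf samples, a gap of 0.952 of the whole range, above Dixon's 95% critical value for 4 samples. This was 1 of 32 members examined this way, and chance flags about 1 in 20 such groups.

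The growth of TBP guides, DMSO over T0, differed between the LGR and legacy libraries in the interaction test, by -0.734 on summed counts and by -3.14 for the guide at 170863481 on chromosome 6, both on the log2 scale. That guide had few reads in LGR DMSO, at 0.181 and 0.405 CPM. Leaving out single samples moved the summed difference between -0.887 and -0.597 and that of the guide between -3.83 and -2.69.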

How the results depend on the processing

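Direction was compared for GTF2E1, TAF4, TAF7, TAF1, TAF11, TAF6L and BTAF1 in dasatinib over DMSO, and for TBP between libraries. No call among these changed direction under any alternative run. Elsewhere only the number of calls was compared. With Benjamini-Hochberg adjustment in place of pseudo-genes, the members called by the gene score were 19 of 32 in the 1000-fold screen (7.99% of all genes), 11 of 29 in LGR growth (6.33%), 12 of 31 in legacy growth (5.83%) and 0 of 20 in legacy dasatinib over DMSO (1.24%). In LGR dasatinib over DMSO, DESeq2 called 6 guides, and the fit with the T0 samples called 3 guides and 4 genes by summed counts. Scaling to total counts called 1 gene by summed counts there, a minimum of 10 counts gave 9 gene hits, guides with 50 counts at T0 gave 7, and 10 added to every CPM gave 1. In legacy dasatinib over DMSO, DESeq2 called 16 guides and 7 genes by summed counts, the fit with the T0 samples 15 and 8, scaling on non-targeting guides called 5 genes by summed counts, a minimum of 10 counts gave 6 gene hits, and guides with 50 counts at T0 gave 7. Leaving out a dasatinib sample or adding T0 samples raised the calls over all genes as well. Where a count in this section has no share of all genes or guides beside it, it shows only dependence on the processing. Such a count is not a result about the members. The causes were not tested.

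Same-numbered samples did not deviate together (correlations within 0.00152 of 0), so the numbers pair nothing. With the replicate number as a block, 3 guides and 3 genes by summed counts were called in LGR dasatinib over DMSO, 9 and 8 in legacy, and 78 and 28 in the 100-fold screen.

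Leaving out each replicate in turn gave, for guides, summed counts and gene score, 101 to 103, 30 to 31 and 28 to 29 in the 1000-fold screen. The ranges were 37 to 83, 22 to 29 and 28 to 29 in the 100-fold screen, 26 to 91, 15 to 27 and 16 to 22 in LGR growth, and 45 to 84, 17 to 23 and 18 to 22 in legacy growth. They were 0 to 27, 0 to 12 and 1 to 3 in LGR dasatinib over DMSO, and 1 to 33, 1 to 14 and 0 to 3 in legacy. For the difference between libraries in growth, the ranges, added after seeing the data, were 0 to 1 genes by summed counts and 0 to 2 guides. Those in dasatinib and between coverages stayed at 0.

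The dasatinib screens had means of 152.7 to 192.5 counts per guide, and their depth and the loss of member guides by T0 cannot be told apart as limits.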
